A study of Mus musculus with 6 samples.

Results

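The cells described here were neutrophils rich in the mRNA of secondary granule proteins, found among CD45+ leukocytes sorted from digested synovium of mice with antigen-induced arthritis. A cell was chosen by its own UMI counts, where a UMI is the tag that marks a single captured RNA molecule. S100a8 and S100a9 together had to make up at least 10% of the UMIs of the cell, Ngp, Camp and Ltf together at least 2%, and Mki67 and Top2a, mRNAs of dividing cells, had to be absent. Of the 32953 cells in the table, 3717 met the rule, and they are called granule-rich neutrophils below.

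C57BL/6 mice, purchased at 8 weeks of age, were immunized with 10 μg methylated bovine serum albumin in complete Freund's adjuvant, and arthritis followed injection of 100 μg of the same antigen into the knee on day 21. The series holds 2 samples from mice given the vehicle PBS and 4 from mice given 300 μg of PEPITEM, an immunopeptide, all taken 3 days after the knee injection. The barcodes end in a library number from 1 to 6, and no source used here ties a number to a treatment. PBS and PEPITEM were therefore not compared, the 6 libraries are not replicates of a group, and values are given per library without a standard deviation or a test.

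Neutrophils build their granules in order while they mature in the bone marrow. Azurophil granule proteins such as myeloperoxidase are transcribed first, in dividing promyelocytes, then secondary granule proteins such as lactoferrin in myelocytes and metamyelocytes, and gelatinase granule proteins in later forms that no longer divide. C/EBPε is a transcription factor needed for the secondary granule genes, and mature cells carry receptors such as CXCR2 and make cytokine mRNAs such as Il1b. Neutrophils beyond the earliest stages hold large amounts of S100a8 and S100a9 mRNA, which encode the subunits of calprotectin.

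The 3 granule genes of the rule lie on chromosome 9 of the mouse genome build GRCm38, which is also called mm10. Ltf (ENSMUSG00000032496, chr9:111019271-111042767, plus strand) encodes lactoferrin, an iron-binding protein. Camp (ENSMUSG00000038357, chr9:109847379-109849617, minus strand) encodes the cathelicidin precursor. Ngp (ENSMUSG00000032484, chr9:110419747-110423012, plus strand) encodes neutrophilic granule protein. The sequences before their starts are shown because these genes chose the cells. They come from RefSeq (GRCm38.p6) and end where the earlier of the RefSeq and GENCODE starts begins.

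Ltf, chr9:111019141-111019270, plus strand: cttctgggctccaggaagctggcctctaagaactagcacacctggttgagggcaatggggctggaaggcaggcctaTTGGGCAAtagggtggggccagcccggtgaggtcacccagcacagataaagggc
Camp, chr9:109849618-109849706, minus strand: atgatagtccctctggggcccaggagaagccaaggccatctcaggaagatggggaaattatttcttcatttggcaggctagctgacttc
Ngp, chr9:110419617-110419746, plus strand: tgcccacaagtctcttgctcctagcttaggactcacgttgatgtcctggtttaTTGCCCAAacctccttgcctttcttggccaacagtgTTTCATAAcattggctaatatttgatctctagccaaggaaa
Capitals mark matches to TTNNGNAA, letters of the kind that C/EBP factors bind, read on both strands. In the 250 bases before the RefSeq start, Ltf held 2 such matches, Ngp 3 and Camp 0, and 36.9% of all 32851 promoter windows held at least 1. GAGGAA, letters of the kind that PU.1 binds, occurred once before Ltf, not before Ngp or Camp, and in 23.3% of all windows. A match is a description of the letters and does not show that a factor binds there.

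Granule-rich neutrophils made up 11.3% of all cells (Wilson 95% confidence interval 10.9 to 11.6%) and 33.1% of the 11227 cells with S100a8 and S100a9 at 10% or more. They numbered 159, 534, 92, 375, 1481 and 1076 in libraries 1 to 6. As a share of all cells they ranged from 3.15% (2.58 to 3.85%) in library 3 to 15.9% (15.1 to 16.6%) in library 5. As a share of the S100-rich cells the range was narrower, from 27.7% (24.2 to 31.5%) in library 1 to 34.9% (32.6 to 37.3%) in library 2. S100-rich cells themselves were 10.6% of all cells in library 3 and 45.5% in library 5. These intervals cover counting error only.

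**Figure D1:**
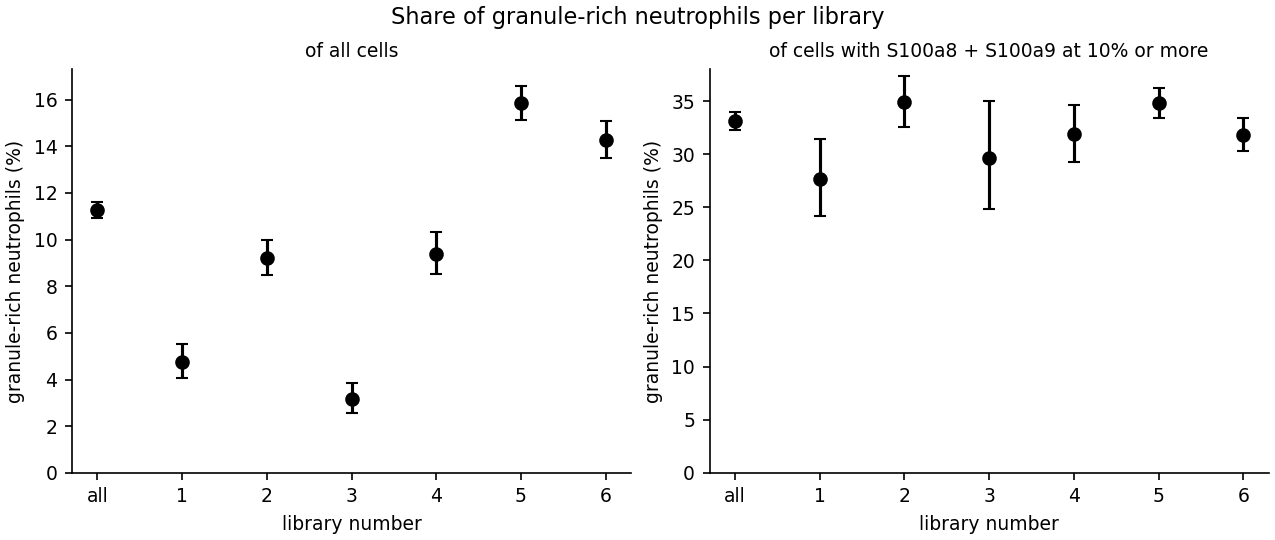
Share of granule-rich neutrophils (%, with Wilson 95% confidence intervals) for all cells pooled and for each of the 6 libraries, of all cells on the left and of S100-rich cells on the right. Points on the left spread from 3.15% to 15.9%, and those on the right lie between 27.7% and 34.9%.

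Libraries 1 to 6 held 56033132, 87388258, 47273569, 62601846, 123367661 and 109884433 UMIs. Granule-rich neutrophils had a median of 12652 UMIs per cell, with library medians from 11144 to 19932, and contributed 57942787 UMIs in all. S100a9 and S100a8 alone were 15.2% and 13.9% of these, and Ngp, Camp and Ltf together 6.45%. The 5 genes together took 35.5%, against 21.0% in the neutrophils low in granule mRNA described next. Of the 138 barcode sequences that occurred in more than 1 library, 3 were granule-rich neutrophils in more than 1 of them.

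The thresholds cut through cells with no gap between them. S100-rich cells without Mki67 or Top2a included 1013 with an intermediate granule share of 0.5 to 2% and 4049 with less than 0.5%, called low-granule neutrophils here. Another 2247 cells met both share thresholds but held Mki67 or Top2a, and are called cycling cells. The 103 cells just below the granule threshold (1.8 to 2%) had 5976 CPM (the UMIs of a gene per 1000000 UMIs of the cells)  of Lcn2, and the 98 just above it (2 to 2.2%) had 6129. Retnlg was at 18616 CPM below and 17889 CPM above. The 26 cells just under the S100 threshold (9 to 10%) had 4569 CPM of Lcn2 and the 23 just over it 4753. The cycle condition depends on depth, since a deeper cell has more chances to show a UMI of Mki67 or Top2a, and the cycling cells had a median of 27995 UMIs.

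**Figure D2:**
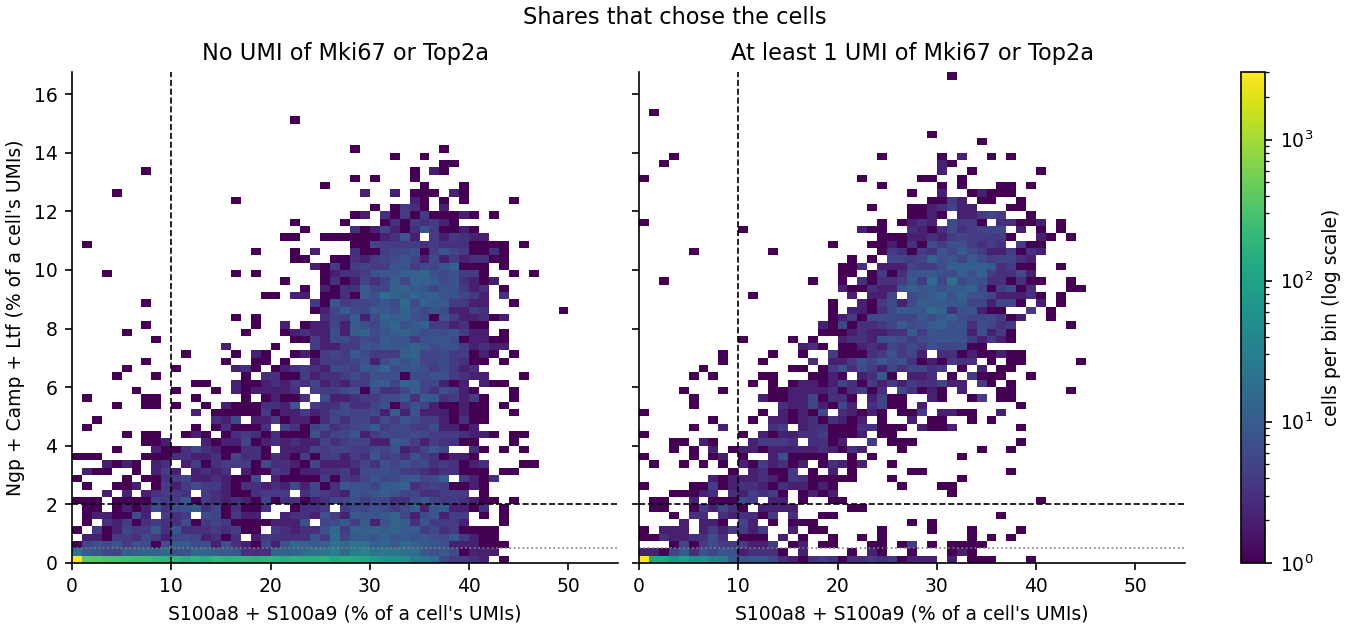
Number of cells (colour, log scale) by the share of S100a8 and S100a9 (horizontal axis) and of Ngp, Camp and Ltf (vertical axis) in the UMIs of a cell, without and with a UMI of Mki67 or Top2a. Dashed lines mark 10% and 2%, the dotted line 0.5%, and 6 cells lie outside the plot; cells without cycle UMIs spread without a gap across the line at 2%.

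Of the 6 markers that go with the label, Ngp and Ltf were part of the rule, and Lcn2, Cd177 and Ly6g were higher than in low-granule neutrophils in every library, with no overlap. Mmp8 overlapped with the low-granule neutrophils and the intermediate cells, Lcn2 and Cd177 with the cycling cells, and Cd177 and Ly6g with the intermediate cells. All levels below are CPM of UMIs at the 3′ end of the mRNA, which count molecules and need no division by gene length. Folds are ratios after adding 10 CPM to both levels. The groups of cells come from the same libraries and were cut by these counts, so the values are a description.

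Ltf was at 7988, 8329, 9356, 10500, 9960 and 10444 CPM in the granule-rich neutrophils of libraries 1 to 6, and at 36.0 CPM in low-granule neutrophils. Ngp lay between 26642 and 34686 CPM, with 829 CPM in low-granule neutrophils. Camp lay between 19749 and 27164 CPM, with 94.2 CPM in low-granule neutrophils. These differences are what the rule selected.

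Lcn2 (chr2:32384633-32388252), whose product binds bacterial siderophores, was at 9999, 9814, 9607, 14510, 13953 and 13803 CPM in libraries 1 to 6. In low-granule neutrophils the 6 libraries lay between 1792 and 3091 CPM, so the groups did not overlap. The pooled difference was 4.87-fold. Cd177 (chr7:24743983-24760311), a surface glycoprotein of neutrophils, was at 717, 753, 666, 865, 915 and 1008 CPM, against 185 to 261 CPM, a 3.61-fold difference. Ly6g (chr15:75155240-75159126), the surface antigen used to gate mouse neutrophils, was at 513, 547, 505, 738, 819 and 900 CPM, against 182 to 382 CPM, 2.29-fold in the pooled cells. For all 3 genes, libraries 4 to 6 were higher than libraries 1 to 3, and every library was higher in granule-rich than in low-granule neutrophils.

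Mmp8 (chr9:7558456-7568485), neutrophil collagenase, is stored in secondary granules but did not follow the other markers. It was at 1299, 1644, 1432, 1499, 1672 and 1720 CPM in granule-rich neutrophils and at 1023 to 1540 CPM in low-granule neutrophils, with overlapping ranges. Intermediate cells held 2311 CPM, more than either. Cycling cells held 385 CPM, and there the library values of 222 to 576 CPM lay below all those of the granule-rich neutrophils.

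To compare the share of cells with a UMI of a marker, each cell was thinned to 3000 UMIs, which left out 15 granule-rich neutrophils with fewer. Lymphocytes, which should lack these mRNAs, served as background, with 6875 cells deep enough to thin. The median depths before thinning were 12652 and 6402 UMIs. Cd177 was seen in 92.3% of thinned granule-rich neutrophils and 0.713% of lymphocytes, and Ly6g in 82.3% and 0.684%. Before thinning the shares were 99.7% and 1.77% for Cd177, and 97.4% and 1.55% for Ly6g. Mmp8 was seen in 80.4% of thinned granule-rich neutrophils, 82.8% of low-granule and 99.1% of intermediate cells (87.8%, 86.6% and 99.9% before thinning). The share for Ltf, 99.7% against 0.902% of lymphocytes, follows from the rule. Elane was seen in 0.108% of thinned granule-rich neutrophils, below the 0.800% in lymphocytes, and is read as background. At 3000 UMIs the median number of genes per cell was 962 in granule-rich, 974 in intermediate, 999 in low-granule and 1096 in cycling cells.

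Granule-rich neutrophils were first set against low-granule neutrophils within each library. Of 4409 genes with at least 20 CPM in either group, 121 (2.74%) were at least 2-fold higher in every library and 202 (4.58%) at least 2-fold lower in every library. Such genes are said to be called, and in the counts over gene lists below, higher and lower mean called by this 2-fold rule. Genes that are not called may still differ by less in every library. The rule itself used this contrast, so nothing is read from these shares. The balance between higher and lower depended on the 7 rule genes. With their UMIs left out of the totals, 202 genes were higher and 128 lower, and the median log2 ratio of all genes moved from -0.05 to 0.26. All 121 higher genes and 126 of the 202 lower genes were called under both totals.

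In the secondary granule list, 8 of the 17 genes outside the rule were at least 2-fold higher in every library and none 2-fold lower, with a median log2 ratio of 1.31 against -0.05 for all genes tested. Of the 17, 2 reached 20 CPM only in the granule-rich neutrophils, Fcnb among them, so the direction of Fcnb was fixed by the filter. Besides Lcn2 and Cd177 the higher genes were Chil3, Cybb, Ltb4r1, Ifitm6, Ceacam1 and Fcnb. Chil3, a chitinase-like lectin, was at 1704 to 2753 CPM across libraries against 25.2 to 78.1 CPM, a 41.6-fold difference. Fcnb, which encodes a ficolin, was at 73.8 to 125 CPM, and at 0 in 3 of the 6 libraries of low-granule neutrophils. Ifitm6 was at 1722 to 3142 CPM against 380 to 810 CPM.

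Cybb (chrX:9435252-9487771) encodes the catalytic subunit of the NADPH oxidase that makes superoxide. It was at 1542, 1659, 1626, 1539, 1681 and 2020 CPM in granule-rich neutrophils and 142 to 276 CPM in low-granule neutrophils, 7.70-fold apart. It was the only 1 of 6 oxidase genes past 2-fold in every library. Its membrane partner Cyba was at 1659 against 974 CPM, and the cytosolic subunits Ncf1 at 604 against 371 CPM and Ncf4 at 304 against 204 CPM.

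Lta4h (chr10:93453411-93484875), the hydrolase that makes leukotriene B4, was at 331, 323, 325, 396, 346 and 370 CPM, and at 13.2 to 23.9 CPM in low-granule neutrophils. That 13.4-fold difference was the second highest by the naming rule, after Chil3. Against cycling cells, however, Lta4h was lower in every library, without overlap. Ltb4r1, the high-affinity receptor for leukotriene B4, was at 221 to 308 CPM against 47.2 to 72.7 CPM.

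Other genes at the top of this comparison were Zmpste24, a metalloprotease that processes prelamin A, at 206 against 6.60 CPM, and Abca13, a lipid transporter, at 361 against 20.7 CPM. Serpinb1a, an inhibitor of neutrophil serine proteases, was at 350 against 30.2 CPM. Erg, an ETS family transcription factor, was at 142 against 9.22 CPM. Ldhc, Krt81, Ica1, Aff2 and Ncam1 completed the 12, with pooled levels of 101 to 253 CPM in granule-rich neutrophils. Among the 12, Chil3, Lta4h and Serpinb1a were lower than in cycling cells in every library without overlap, and Krt81 was higher. The others overlapped with the cycling cells. Lta4h, Zmpste24, Ldhc, Krt81, Ica1, Erg and Aff2 were under 20 CPM in low-granule neutrophils, so they passed the filter only where they were high.

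Of 13 transcription factors tested, Cebpe and Ets1 were at least 2-fold higher and Cebpb and Junb at least 2-fold lower in every library. Cebpe passed the filter only through the granule-rich neutrophils, so its direction was fixed. Cebpe was at 58.7, 72.4, 49.1, 114, 143 and 131 CPM, against 6.086 to 11.97 CPM in low-granule neutrophils, with libraries 4 to 6 above libraries 1 to 3. Ets1 was at 167 against 40.4 CPM. Cebpb was at 1252 against 3652 CPM, and Junb at 736 against 2505 CPM.

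Of 22 late neutrophil genes, 13 were at least 2-fold lower in every library and none 2-fold higher, with a median log2 ratio of -1.65. Gadd45a, also on this list, went the other way without being called. It was higher in granule-rich neutrophils than in low-granule, intermediate and cycling cells in 6 of 6 libraries, without overlap. Il1b (chr2:129364570-129371139), the precursor of interleukin 1β, was at 1601, 1371, 1778, 648, 1073 and 709 CPM, against 5220 to 6551 CPM in low-granule neutrophils. Without cells holding UMIs of macrophages, dendritic cells or B cells, its level in library 3 was 948 CPM in place of 1778 CPM. Cxcr2, the chemokine receptor that draws neutrophils out of the marrow, was at 126 to 243 CPM against 517 to 762 CPM, and Csf3r, the G-CSF receptor, at 220 to 341 against 1057 to 1290 CPM.

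The most strongly lower genes by the naming rule were Ifitm1, Gm5483, Wfdc17, Ccl6, Lypd6b, Sirpb1b, Amica1, Stfa2l1, Ptgs2, Gm5150, Il1b and H2-Q10. Lypd6b was under 20 CPM in granule-rich neutrophils (19.1 against 176 CPM), so it passed the filter only where it was high. Ifitm1 was at 199 against 1974 CPM, Ccl6, a chemokine, at 210 against 1658 CPM, and Ptgs2, the inducible cyclooxygenase, at 116 against 725 CPM. Gm5483 and Stfa2l1 belong to the stefin A family of near-identical genes, so reads may be split between its members. Of 17 activated neutrophil genes, Cxcl2, Trem1, Nfkbiz and Ptgs2 were at least 2-fold lower in every library, and none was 2-fold higher. Cxcl2 was the most abundant of them, at 910, 996, 1115, 333, 459 and 232 CPM against 1805 to 4520 CPM. Nfkbiz, with a log2 ratio of -1.38, was at -1.09 and not called when the UMIs of the rule genes were left out of the totals. The median log2 ratio of the list was -1.16. Of its 17 genes, 3 reached 20 CPM only in low-granule neutrophils, so their direction was fixed by the filter. Without cells holding UMIs of macrophages, dendritic cells or B cells, 9 of 15 tested genes of the list were lower. Among all genes tested, 379 of 4055 were then lower, against 202 of 4409 with all cells.

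**Figure D3:**
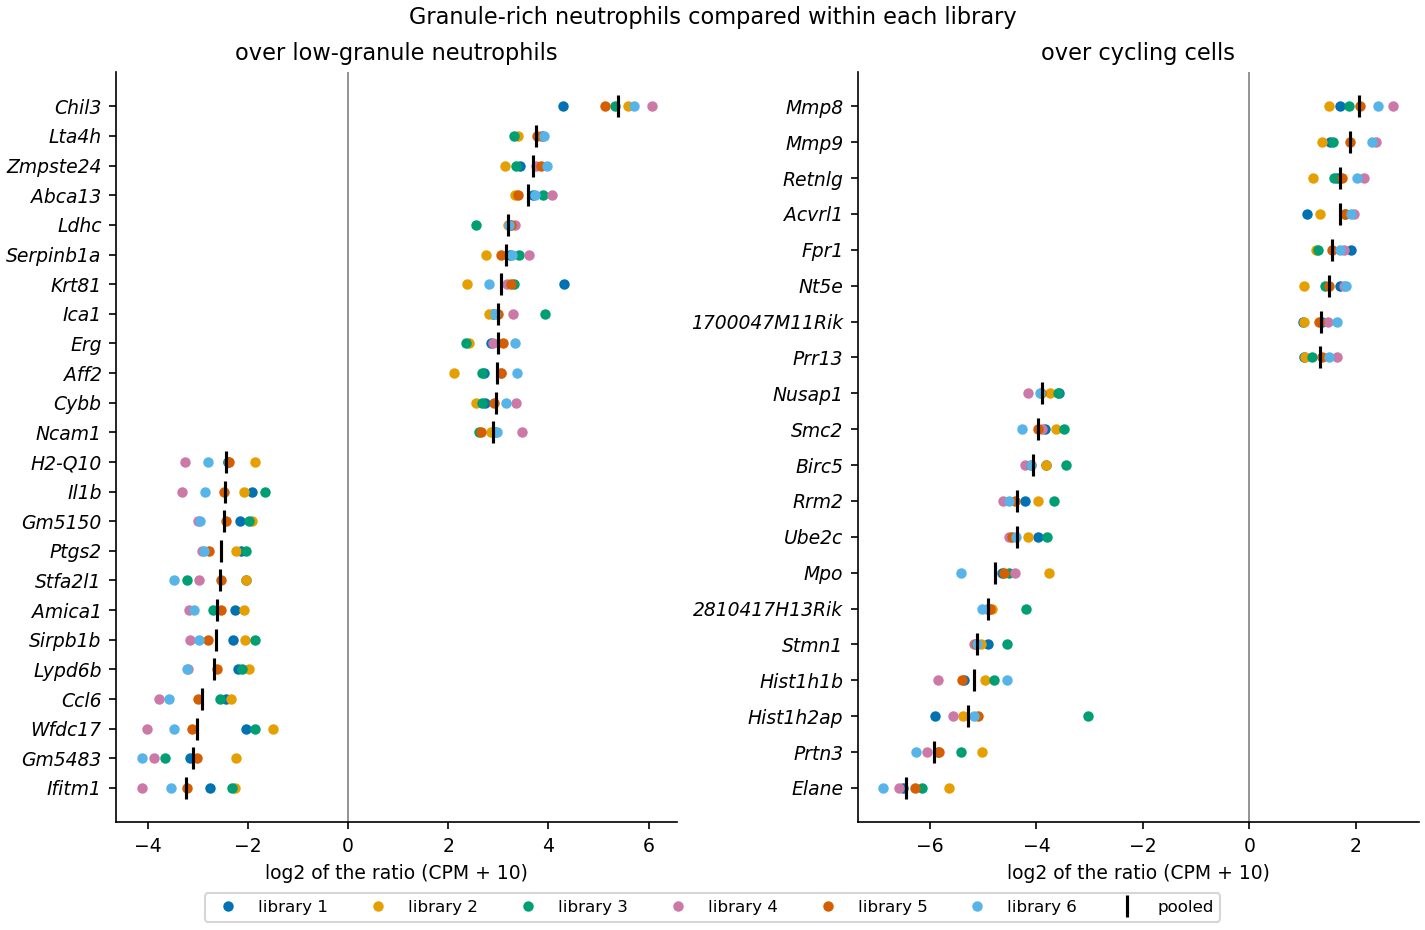
Log2 ratios of granule-rich neutrophils over low-granule neutrophils (left) and over cycling cells (right), with 10 CPM added, for the genes named by rule. Coloured points are the 6 libraries and black bars the pooled cells, which run from 5.38 for Chil3 to -3.25 for Ifitm1 on the left. The naming rule took only genes at least 2-fold apart in every library, so the libraries lie on 1 side of 0 by choice.

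Of 80 cytosolic ribosomal protein genes tested, 0 passed 2-fold in every library in either direction, with a median log2 ratio of 0.45. Of the 80, 1 reached 20 CPM only in granule-rich neutrophils. Without cells holding UMIs of macrophages, dendritic cells or B cells, 2 of 79 were higher, against 185 of 4055 among all genes tested. Of 16 glycolysis genes, Ldha was higher (541 against 217 CPM), and the glucose transporters Slc2a1 and Slc2a3 were lower. Without the UMIs of the rule genes neither transporter was called, and their log2 ratios were -1.31 and -1.29 in place of -1.54 and -1.57. Of 12 interferon response genes, 2 reached 20 CPM only in low-granule neutrophils, so their direction was fixed by the filter. The median log2 ratio of the 12 was -1.01, and Oasl2 was lower. That call was also lost with those UMIs left out, at a log2 ratio of -1.74 in place of -1.93. Without cells holding UMIs of other cell types, 4 of 11 were lower, against 379 of 4055 among all genes tested. Of 6 tested genes of the S100 family outside the rule, 0 were called. They summed to 8571 against 15253 CPM. S100a6 (0.479% against 0.908% of UMIs) and S100a11 (0.323% against 0.579%) were lower in every library, without overlap. S100a1 and S100a13 were higher in every library, also without overlap. Without the UMIs of the rule genes 1 of 6 was higher, and without cells holding UMIs of other cell types 1 of 3. In the retention and adhesion list 4 of 10 genes, among them Cxcr4, Cxcr2 and Selplg, were lower and 0 higher, with a median log2 ratio of -0.96. The Cxcr4 call, at 93.6 against 304 CPM, was lost without the UMIs of the rule genes, at a log2 ratio of -1.35 in place of -1.60. Of 7 iron genes Lcn2 was higher and Slc11a1 lower, and Slc11a1 was also the only 1 of 11 gelatinase and secretory granule genes called. Of 14 pattern and chemotactic receptors, Ltb4r1 was higher. Without cells holding UMIs of other cell types, 1 of the 14 was higher and 2 were lower. Only 3 azurophil granule genes could be tested, of which Serpinb1a was higher and Srgn lower, the latter at a log2 ratio of -1.53, and at -1.24 and not called without the UMIs of the rule genes.

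The same cells were then compared with cycling cells, which met the same S100 and granule thresholds but held Mki67 or Top2a. Of 5060 genes tested, 9 (0.178%) were at least 2-fold higher in the granule-rich neutrophils of every library and 288 (5.69%) at least 2-fold lower. Here too the rule fixed part of the contrast.

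Of 11 gelatinase and secretory granule genes, Mmp9, Retnlg and Fpr1 were at least 2-fold higher in every library and none 2-fold lower, with a median log2 ratio of 0.96 against -0.07 for all genes tested. Mmp8 was 4.15-fold and Mmp9 (chr2:164940780-164955850), gelatinase B, 3.72-fold higher, the latter at 1035, 1306, 1070, 1457, 1579 and 1541 CPM against 275 to 506 CPM. Retnlg (chr16:48872621-48874496), a resistin-like secreted protein, was at 9960, 11823, 6660, 9541, 12205 and 9297 CPM against 2129 to 5151 CPM. Fpr1, a receptor for formylated bacterial peptides, was at 139 against 40.7 CPM, and Nt5e, the ecto-5′-nucleotidase CD73, at 220 against 71.6 CPM. Acvrl1, Prr13, 1700047M11Rik and Cd55 (79.6 against 22.7 CPM) were the others, of which Cd55 was under the 100 CPM of the naming rule and is named to complete the count. Prr13 and 1700047M11Rik were not called without the UMIs of the rule genes or after thinning to 3000 UMIs, and Retnlg, Nt5e and Prr13 not with the granule threshold at 5%. None of the 22 late neutrophil genes passed 2-fold in every library here, although their median log2 ratio was 0.87. With cells that held UMIs of macrophages, dendritic cells or B cells left out, 4 of the 22 were higher. Among all genes tested, 64 of 4812 were then higher, in place of 9 of 5060. Of the 11 gelatinase and secretory granule genes, 5 were then higher in place of 3.

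Of the 29 cell cycle genes outside the rule that could be tested, 24 reached 20 CPM only in the cycling cells, which had been chosen by Mki67 and Top2a, so nothing is read from their direction. Stmn1, Ube2c, Rrm2, Birc5 and Nusap1 were among the 12 most strongly lower. H2afz, a histone variant, was at 1056 CPM in granule-rich, 2560 CPM in cycling and 259 CPM in low-granule cells. The other 29 genes of the list of 30 summed to 1149 CPM in granule-rich and 1172 CPM in low-granule cells. Of 10 azurophil granule genes tested, 7 reached 20 CPM only in the cycling cells. Elane (chr10:79886247-79888215), neutrophil elastase, had 22 UMIs in all 3717 granule-rich neutrophils (0.380 CPM) against 893 CPM in cycling cells, and Mpo had 7 UMIs (0.121 CPM) against 268 CPM. Hist1h2ap and Hist1h1b, histone genes of dividing cells, were at 8.91 and 1.00 CPM against 731 and 384 CPM. Both reached 20 CPM only in the cycling cells, so their direction was fixed by the filter.

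Of the 17 secondary granule genes outside the rule, Fcnb was lower than in cycling cells and Mmp8 higher, and 15 were not called, with a median log2 ratio of 0.23. Of the 17, 1 reached 20 CPM only in granule-rich neutrophils. Without cells holding UMIs of macrophages, dendritic cells or B cells, 2 of the 17 were higher and 1 lower. Among all 4812 genes tested, 64 were then higher and 559 lower. Fcnb was at 888 CPM in cycling cells and 96.7 CPM in granule-rich neutrophils, 8.42-fold apart, and lower in 6 of 6 libraries. Chil3, at 4745 CPM in cycling against 2221 CPM in granule-rich cells, was not called, and Camp, a gene of the rule, was at 37792 against 24670 CPM. Cebpe, from the transcription factor list, was at 291 against 114 CPM and was called. Lcn2, Cd177, Cybb and Abca13 were 1.13 to 1.28-fold higher in granule-rich neutrophils. Ifitm6 and Ly6g were 2.025-fold and 2.31-fold higher there, but not past 2-fold in every library.

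Granule-rich neutrophils were not uniform. They were divided by their Ngp, Camp and Ltf share into 1258 cells at 8% or more, 1576 at 4 to 8% and 883 at 2 to 4%, and placed between the cycling and the intermediate cells. Lcn2, Ltf, Ngp, Cd177, Ly6g, Cybb, Ltb4r1 and Ifitm6 were highest in cells at 8% or more in 6 of 6 libraries. Ltf, Ngp and the share that orders the cells are not independent, while the other 6 genes played no part in the ordering. Ly6g was at 318 CPM in cycling cells, 978, 744 and 444 CPM in the 3 divisions, 416 CPM in intermediate and 319 CPM in low-granule cells. Cybb was at 1537, then 2222, 1732 and 1103, then 686 and 217 CPM.

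Mmp8 and Retnlg ran the other way within the granule-rich neutrophils. From cells at 8% or more to those at 2 to 4%, Mmp8 was at 952, 1874 and 2093 CPM and was highest in intermediate cells, at 2311 CPM, in 6 of 6 libraries. Retnlg was at 5306, 11682 and 16490 CPM across the same divisions and at 24699 CPM in intermediate cells. Its highest group was the intermediate cells in 3 of 6 libraries only. Mmp9 was at 1074, 1601 and 1683 CPM. These levels are of the pooled cells. In library 3, Mmp8, Retnlg and Mmp9 were lower at 2 to 4% (1460.0, 6849.5 and 944.5 CPM) than at 4 to 8% (1980.7, 8472.5 and 1421.7 CPM). Il1b was at 290, 1153 and 1879 CPM, against 537 CPM in cycling and 5845 CPM in low-granule cells, and Cxcr2 at 108, 229 and 304 CPM. Genes whose products are stored together in secondary granules thus did not share 1 order.

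Chil3, Fcnb and Cebpe were highest in cycling cells and lower in each following division of the pooled cells. Chil3 was at 4745, 3711, 1933 and 760 CPM, and Fcnb at 888, 213 and 57.7 CPM in the first 3 of these groups. Library 3 went the other way for Chil3, with 3307 CPM in cycling cells and 3910 CPM in cells at 8% or more. The balance of the 3 rule genes also differed. For each UMI of Camp there were 0.186 of Ltf in cycling cells, then 0.337, 0.438 and 0.495 in the 3 divisions of granule-rich neutrophils. The library ranges were 0.175 to 0.219, 0.325 to 0.400, 0.420 to 0.542 and 0.467 to 0.549, so cycling cells did not overlap with any division of granule-rich neutrophils.

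**Figure D4:**
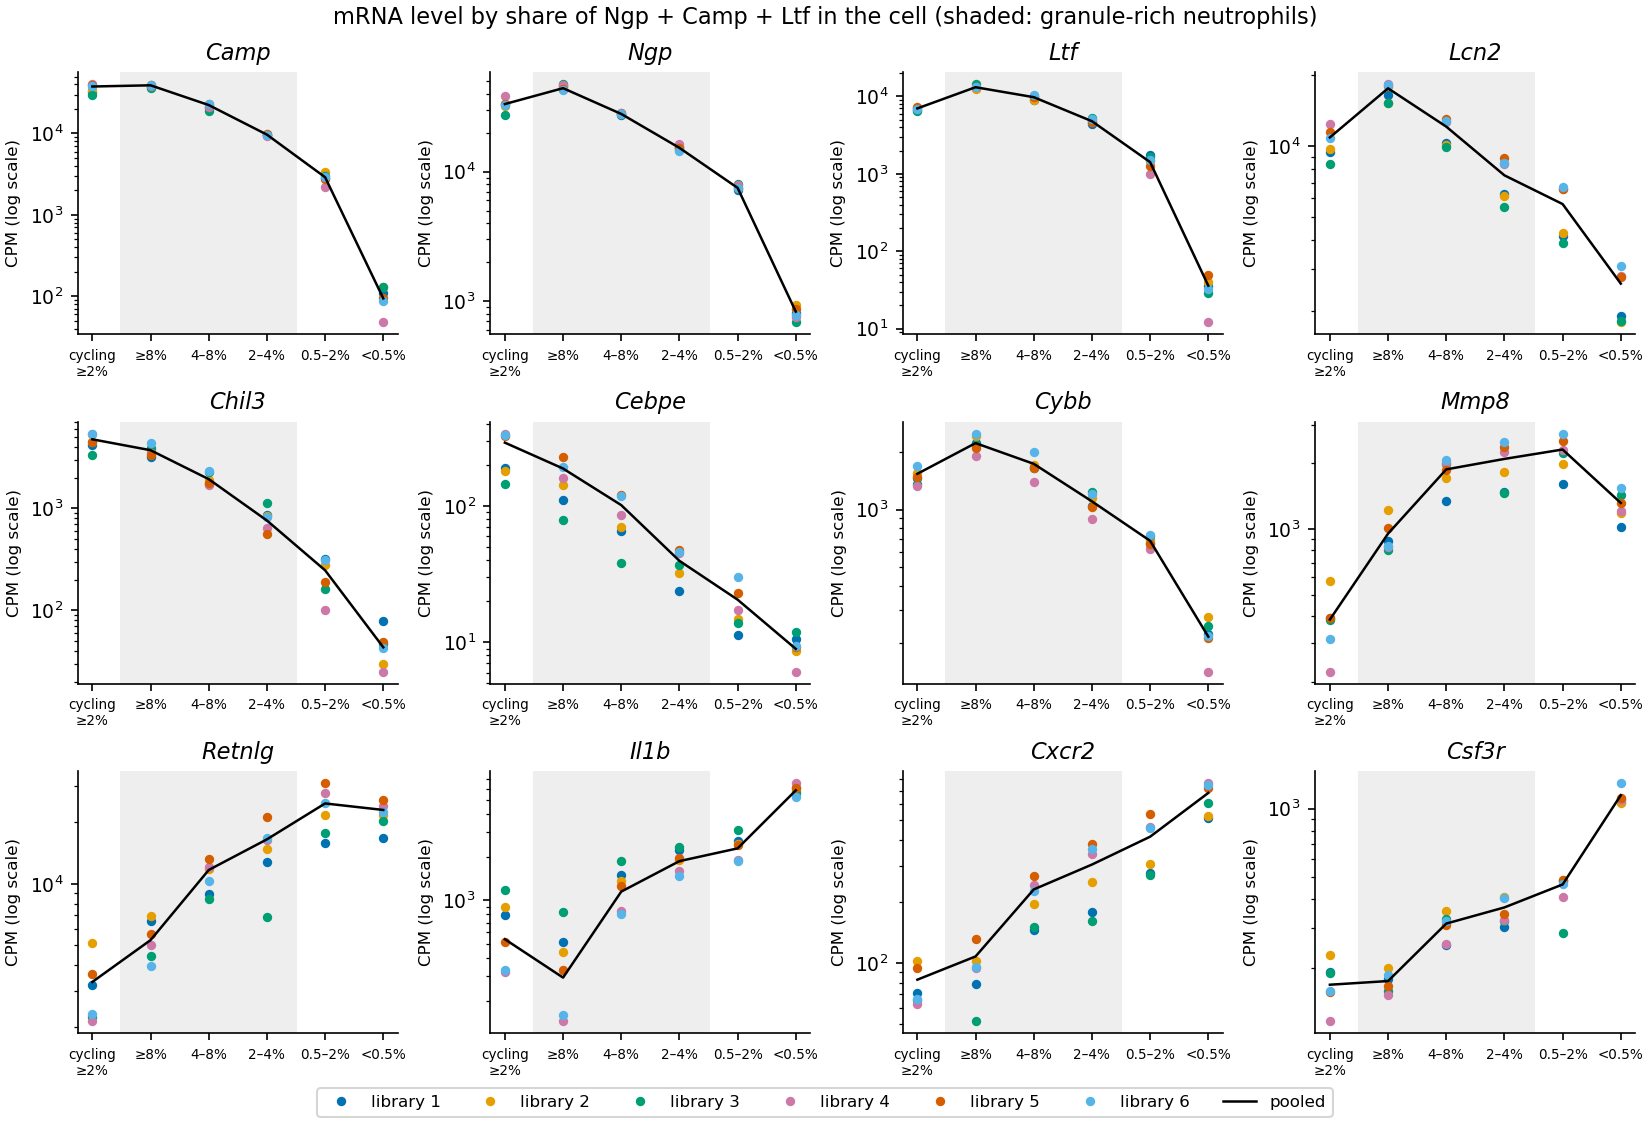
Level of 12 genes (CPM, log scale) in cycling cells and in S100-rich cells without cycle UMIs by their share of Ngp, Camp and Ltf. Points are the 6 libraries, the line is the pooled cells and the shaded area holds the granule-rich neutrophils; Lcn2 and Cybb are highest at 8% or more, Mmp8 in intermediate cells (2311 CPM), and Il1b, Cxcr2 and Csf3r below 0.5%.

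Cell by cell, over the 92 to 1481 granule-rich neutrophils of a library, Spearman's rho between the CPM of Retnlg and Mmp8 was 0.633 to 0.748. This is a description over cells, which are not replicates, and the CPM of all genes share the depth of the cell and, through the totals, the rule genes.

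RNA of other cell types was present in some granule-rich neutrophils and differed between libraries. The 4 neutrophil markers outside the rule summed to 12211 to 17612 CPM across libraries, while the 8 macrophage markers, led by Apoe, summed to 2297, 1521, 3152, 784, 294 and 406 CPM in libraries 1 to 6. The 7 dendritic cell markers, led by Cd74, summed to 2880, 1819, 5069, 1078, 524 and 627 CPM, and the 7 B cell markers, led by Ighm, to 40.9 CPM in library 3 and 502 CPM in library 5 at the extremes. The monocyte markers, of which Ly6c2 (907 CPM) was the most abundant, were steadier, at 1081 to 1594 CPM. T cell markers summed to 13.6 CPM, NK cell markers to 1.78 CPM and erythroid markers to 0.259 CPM in the pooled cells, with Hbb-bt at 0. The markers of progenitors (7.92 CPM), fibroblasts (21.8 CPM), mast cells and basophils (18.2 CPM) and eosinophils (2.02 CPM) were low, and megakaryocyte markers, led by Pf4, were at 93.4 CPM.

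Markers of macrophages, dendritic cells and B cells were unevenly spread over the cells. At least 5 UMIs of the macrophage, dendritic cell or B cell markers were held by 546 of the 3717 granule-rich neutrophils (14.7%), from 8.55% in library 6 to 40.9% in library 1, and by 10.8% of low-granule and 19.8% of cycling cells. A fixed number of UMIs is reached more often in deeper cells, and the median depths were 12652, 5126 and 27995 UMIs. With each cell thinned to 3000 UMIs, which left out 15, 246 and 8 cells, the shares were 10.3% of granule-rich, 7.84% of low-granule and 9.56% of cycling cells. The macrophage markers summed to 841, 1073 and 487 CPM in these classes and the dendritic cell markers to 1163, 1046 and 719 CPM. At least 5 UMIs of the monocyte markers were held by 92.5% of granule-rich and 23.3% of low-granule neutrophils, and by 27.3% and 8.73% after thinning. The monocyte markers summed to 1193 and 734 CPM. Ly6c2 alone was at 907 CPM in granule-rich neutrophils, higher than in low-granule neutrophils in every library, without overlap. The study's gate for neutrophils itself included Ly6C protein, and whether these UMIs came from monocytes was not tested. The part of these markers in the results was not tested either. The 37 cells with most Apoe held 52.1% of all Apoe UMIs in the granule-rich neutrophils. The results were computed again without the cells holding macrophage, dendritic cell or B cell UMIs. The counts against low-granule neutrophils then became 185 higher, all 121 of the earlier ones among them, and 379 lower, with 201 of the earlier 202. All 8 secondary granule genes stayed higher, and 16 late neutrophil genes were lower in place of 13. Granule-rich neutrophils without such UMIs were 9.62% of all 32953 cells.

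**Figure D5:**
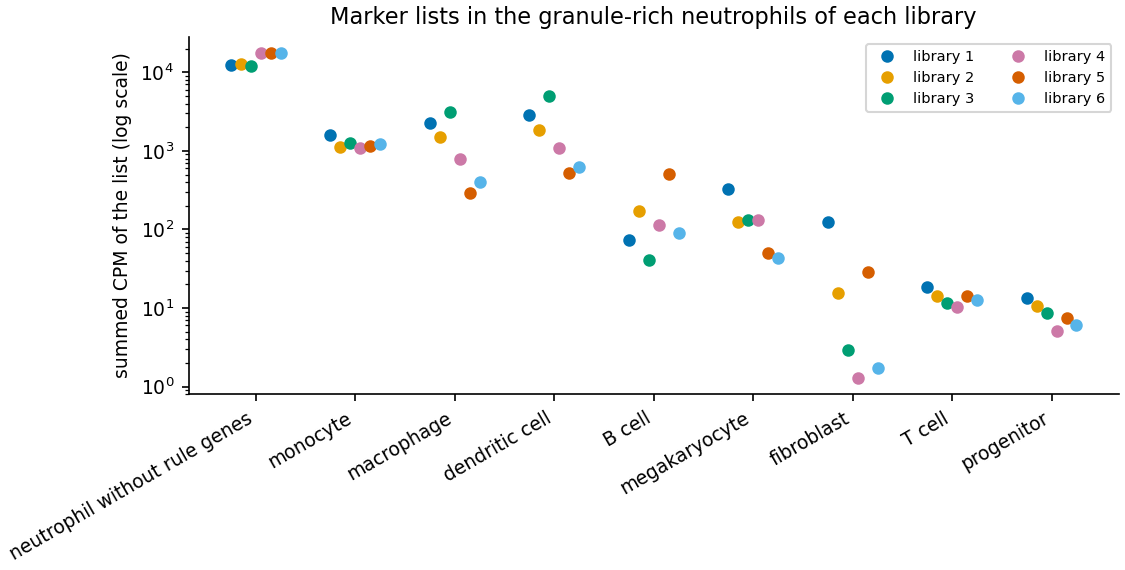
Summed CPM (log scale) of marker lists in the granule-rich neutrophils of each library. The neutrophil markers, plotted without the rule genes Ngp and Ltf, lie between 12211 and 17612 CPM, and the macrophage and dendritic cell markers are lower in libraries 5 and 6 than in libraries 1 to 3.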

How the data were processed

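Single-cell RNA sequencing of CD45+ synovial cells (Chromium 3′ kit version 3.1) gave 6 libraries. Per the study's methods, alignment to mm10 used Cell Ranger 7.0.0. SoupX 1.6.2 took out ambient RNA, DoubletFinder 2.0.3 took out doublets, and Seurat 4.3.0 was used to filter the cells. The authors deposited whole UMI counts per gene and cell, not scaled for depth, for 20394 genes and 32953 cells. These counts include 1724738 stored zeros, and a correction that lowers counts can remove low signals. No doublet caller was run here.

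UMIs were summed per library and class and scaled to CPM. A gene was called when log2 of the ratio, with 10 CPM added, reached 2-fold in the same direction in every library, among genes with at least 20 CPM in either class, rule genes left out. The call was tested on simulated data. Named genes are the lists, the rule genes and, per comparison and direction, the 12 largest ratios among called genes with at least 100 CPM in the higher class. The members and lists were chosen with earlier results of these data known. Acod1, Cebpd and Clec7a were listed but are not in the table used here. Some genes of the lists are counted but not reported here by name. Gene positions came from GENCODE M21 and promoter windows from RefSeq. Other thresholds, pseudocounts, filters, totals and thinning, and leaving out each library, were tried as alternatives. Scripts ran under Python 3.11.15 (pandas 2.3.3, numpy 2.4.6, scipy 1.17.1), and figures with matplotlib 3.10.9.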

Additional observations from a re-analysis of the deposited data

How the results depend on the processing

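No test was run, so no call rests on a p-value, and treatment could not be compared. The share of granule-rich neutrophils (11.3%) was 12.96% with the granule threshold at 1%, 7.46% at 5%, 10.3% with the S100 threshold at 20%, 11.8% among cells with at least 3000 UMIs, 13.7% when these were thinned to 3000 UMIs before the rule, 10.2% with 7 more cycle genes, 33.1% of S100-rich cells, 9.29% as the median library, and 9.62% of all cells when those holding macrophage, dendritic cell or B cell UMIs were not counted as granule-rich. Leaving out each library gave 9.47 to 12.1%.

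Against low-granule neutrophils, the counts of higher and lower genes (121 and 202) were 202 and 128 without the UMIs of the rule genes and 214 and 419 in the pooled cells only. The higher genes numbered 71 with at least 100 CPM, and the lower genes 413 with the granule threshold at 5%. Against cycling cells (9 and 288), they were 96 and 536 in the pooled cells only. The higher genes numbered 21 with 1 CPM added and 15 after thinning to 3000 UMIs, which held 7 of the 9, and the lower genes 78 with at least 100 CPM. Of the 9, 7 were called without the UMIs of the rule genes, 6 with the granule threshold at 5% and 8 with at least 100 CPM. Leaving out each library gave 119 to 135 and 203 to 234, and 9 to 19 and 280 to 338. The 19 came without library 2. In that library the granule-rich and cycling cells were closest for Mmp8, Mmp9 and Retnlg, which were called with all libraries too. The genes added without library 2 were not examined.

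Alternatives chosen after seeing the data gave 185 and 379, then 64 and 559, without cells holding macrophage, dendritic cell or B cell UMIs, and 194 and 410, then 102 and 540, with libraries 4, 5 and 6 only, where fewer libraries had to meet the call. Counts without barcodes that occur in more than 1 library stayed within 1.5 times. The smallest library, 3, held 92 granule-rich and 48 cycling cells.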

Other observations

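Beyond marker lists, 112 of the 1213 genes with at least 100 CPM in granule-rich neutrophils differed 2-fold or more between the lowest and the highest library, where the median ratio was 1.40. Igkc, the immunoglobulin kappa constant gene, ranged most, from 0 CPM in library 3 to 701 CPM in library 5, and 3 cells of library 5 held 90.9% of its 14993 UMIs. The same count for Ighm was 73.4% in 3 cells. Apoe, Fn1, H2-Aa and Cd74 were highest in libraries 1, 2 or 3, with Apoe at 1028, 1020 and 2051 CPM there and 330, 128 and 201 CPM in libraries 4 to 6.

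Cebpb was lowest in library 5 in granule-rich (862 CPM), low-granule (2440 CPM) and cycling cells (485 CPM), where the highest libraries had 1585, 4827 and 1153 CPM. Il1b in granule-rich neutrophils was 648 CPM in library 4 and 1778 CPM in library 3, whereas in low-granule neutrophils its libraries lay between 5220 and 6551 CPM. In granule-rich neutrophils, Cxcl2 was 232 CPM in library 6 and 1115 CPM in library 3. Library 3 was also highest for the macrophage (3152 CPM) and dendritic cell (5069 CPM) markers in these cells, which were lowest in library 5 (294 and 524 CPM). Without cells holding macrophage, dendritic cell or B cell UMIs, Il1b ranged from 526 CPM in library 4 to 1422 CPM in library 1, and Cxcl2 from 199.9 CPM in library 6 to 951 CPM in library 1. Gm42418, a gene that overlaps ribosomal RNA sequence, ranged from 1303 CPM in library 6 to 6149 CPM in library 4, and Cmss1 from 117 CPM in library 6 to 781 CPM in library 4.

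Cells near the rule that belong to none of the classes above were counted as well. There were 107 cells with enough granule mRNA and no cycle UMI but less than 10% S100a8 and S100a9, with a median of 4075 UMIs. A further 201 S100-rich cells held Mki67 or Top2a with a granule share under 2%, with a median of 13120 UMIs.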
